A study of Mus musculus with 12 samples.

Results

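The immunity-related GTPases (IRGs) described here are Irgm1, Irgm2, Igtp, Iigp1, Ifi47, Tgtp1 and Tgtp2, taken by gene symbol from a table of read counts per gene. All 7 were found among the 37542 genes used, and 6 of them passed the filter on low counts that left 12261 genes for testing; Tgtp1 did not pass. The RNA came from bone-marrow-derived macrophages (BMDMs) of C57BL/6N mice, primary cells that differentiate from marrow over 7 days of culture with medium conditioned by L929 cells. The groups were Alpk1-/- (KO) cells given 100 µM ADP-heptose (ADP-Hep) for 4 h, KO cells given PBS for 4 h, wild-type (WT) cells given 100 µM ADP-Hep for 4 h and WT cells given PBS for 4 h, with 3 libraries each. ALPK1 is the kinase that senses ADP-heptose, a sugar nucleotide of Gram-negative bacteria. The labels do not say how the allele was made, which part of the gene is missing, the age or sex of the mice, or whether each library had its own animal, so p-values measure the spread between these libraries.

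On GRCm38 (mm10), Irgm1 lies at chr11:48861968-48871683, Tgtp1 at chr11:48985327-48994172 and Tgtp2 at chr11:49057194-49064206, all on the minus strand. Ifi47 follows on the plus strand at chr11:49076587-49096974. Igtp at chr11:58199556-58207591 and Irgm2 at chr11:58199618-58222782 are plus-strand neighbours farther along the same chromosome. Iigp1 is the only member on another chromosome, at chr18:60376027-60392634 on the plus strand. All are annotated as protein coding.

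IRGs are GTPases of the cytosol and of internal membranes that cells make after exposure to interferons. They fall into effectors and regulators. The effectors (Iigp1, also called Irga6; Tgtp1 and Tgtp2, whose products are called Irgb6; Ifi47, also called Irgd) carry the usual GKS lysine in their nucleotide-binding loop and coat the vacuoles in which parasites and bacteria such as Toxoplasma and Chlamydia live. The regulators (Irgm1, Irgm2 and Igtp, also called Irgm3) carry methionine there, stay on the cell's own membranes and hold the effectors inactive at those membranes.

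The stretches before the transcription starts are shown because interferon signalling reaches IRG genes through 2 kinds of site, the interferon-stimulated response element (ISRE) and the gamma-activated site (GAS). RefSeq promoter windows (GRCm38.p6, 250 bases before to 50 after a start) matched 6 of 7 members; Iigp1 had no entry. Below, 5′ to 3′ on the gene's strand, capitals mark the ISRE core (GAAA, any 2 bases, GAAA) and, before it, the GAS core (TTCNNNGAA).
Irgm1: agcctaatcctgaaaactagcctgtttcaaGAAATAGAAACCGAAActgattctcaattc
Irgm2: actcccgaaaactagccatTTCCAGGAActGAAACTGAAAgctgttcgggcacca
Igtp: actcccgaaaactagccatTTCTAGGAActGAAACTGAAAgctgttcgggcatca
Tgtp1: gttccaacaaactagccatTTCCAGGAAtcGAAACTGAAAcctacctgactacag
Tgtp2: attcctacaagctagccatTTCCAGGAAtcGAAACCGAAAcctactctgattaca

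These stretches lie at chr11:48871421-48871480 (Irgm1), chr11:58214883-58214937 (Irgm2), chr11:58199492-58199546 (Igtp), chr11:48992299-48992353 (Tgtp1) and chr11:49064258-49064312 (Tgtp2). The windows use RefSeq starts, which need not be the outer ends of the gene spans given above. The stretches of Irgm1, Irgm2 and Tgtp1 lie inside those spans. Searched on both strands, the ISRE core was found in 5 of the 6 member windows and in 3.44% of all 32851 windows. Irgm1 had 2 copies that overlap each other. The GAS core was found in Irgm2, Igtp, Tgtp1 and Tgtp2 and in 8.30% of all windows. In those 4 members the GAS core stood 2 bases before the ISRE core, an arrangement present in 5 of the 32851 windows: these 4 and that of Gm12185, another IRG gene of the same cluster. That arrangement was searched for after these sequences had been seen, and the windows are not independent, since the genes are copies of one another: the Irgm2 and Igtp stretches differ at 2 of 55 bases and the Tgtp1 and Tgtp2 stretches at 13 of 55. The Ifi47 window held neither core. A fixed letter pattern of the NF-kB consensus, searched on both strands, was in 4.51% of all windows and in none of the 6 member windows. At that share its absence from 6 windows says little, and looser forms of the site were not searched. The matches are letters in a fixed window and were not tested as binding sites.

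Total counts per library ran from 16110654 to 31333973, of which the rows used held 71.3 to 85.2%. Below a certain row of the deposited table the KO columns sat 1 row off their identifiers, so only the rows above were used, and all members are among them. One KO ADP-Hep column carried a number that matched no label and is called the unnumbered library. Levels are given as CPM, reads per 1e+06 reads counted in the tested genes, with each library's size scaled by TMM. Alpk1 itself had 21.6, 19.2 and 22.5 CPM in KO ADP-Hep libraries and 22.3, 20.3 and 21.3 in KO PBS libraries. It had 53.8, 55.3 and 52.3 CPM in WT ADP-Hep and 30.1, 32.1 and 25.9 in WT PBS libraries. KO libraries were lower than WT libraries without overlap, but since the missing part of the gene is not given, the reads that remain do not check the genotype. The 8 macrophage markers summed to between 24826 and 29614 CPM in every library, most of it Lyz2 (18524.1 to 20772.5 CPM). The sum hides changes of single markers: Cd14 ran from 104 to 1706 CPM and Mertk from 34.5 to 236 CPM over the 12 libraries. On the log2 scale the 8 markers changed with ADP-Hep by -0.40 to 0.80 in KO and by -2.28 to 3.56 in WT cells. Of 6 T cell markers, Cd3e and Cd3g had no count in any library and only Cd4 was high enough to test; the list summed to 2.56 to 3.30 CPM in KO ADP-Hep, 3.48 to 3.71 in KO PBS, 0.856 to 1.11 for WT ADP-Hep and 1.87 to 2.56 for WT PBS libraries, and Cd4 fell in WT cells by 1.17 on the log2 scale. Of 6 NK cell markers, Ncr1, Prf1 and Gzma had no count, and the list stayed at or below 0.432 CPM. The B cell list, nearly all Cd79b, summed to 14.9 to 15.4 CPM in KO ADP-Hep, 13.5 to 17.9 in KO PBS, 7.69 to 10.6 for WT ADP-Hep and 10.9 to 14.0 for WT PBS libraries; its 1 tested marker fell in WT cells by 0.40. Dendritic cell and fibroblast lists stayed at or below 1.53 and 2.10 CPM, and Zbtb46 of the dendritic cell list rose in WT cells by 0.97. The 6 neutrophil markers summed to 66.1 to 84.4 CPM in KO ADP-Hep and 104 to 127 in KO PBS libraries. In WT cells they summed to 114 to 138 CPM with ADP-Hep and 82.9 to 110 with PBS. The part of these markers in the results below was not tested.

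In WT macrophages ADP-Hep raised all 6 tested members, by 1.69 to 3.68 on the log2 scale, with a median of 2.08 beside -0.01 over all 12261 genes. A gene was called at a Benjamini-Hochberg adjusted p under 0.05 in edgeR's quasi-likelihood test. In this comparison 31.9% of all tested genes were called higher, and 32.7% were higher with no overlap between the groups, so a call by itself was common and the size of the change says more. In bulk RNA, more cells expressing a gene and more RNA per cell cannot be told apart.

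Among the regulators, Irgm1, which also acts in autophagy and in survival of activated T cells, had 156, 181 and 151 CPM in WT ADP-Hep libraries, against 47.9, 48.2 and 54.7 in WT PBS libraries. Irgm2, which restrains non-canonical inflammasome activation, had 130, 153 and 133 CPM in WT ADP-Hep libraries, against 36.1, 37.5 and 36.8 in WT PBS libraries. Igtp, found on the endoplasmic reticulum and lipid droplets, had 49.3, 53.9 and 49.4 CPM in WT ADP-Hep libraries, against 13.3, 12.7 and 13.9 in WT PBS libraries. For each regulator the lowest treated library was well above the highest control library. The log2 fold changes were 1.69 ± 0.10 for Irgm1 (standard error; adjusted p = 2.0e-09), 1.92 ± 0.08 for Irgm2 (adjusted p = 1.4e-14) and 1.93 ± 0.07 for Igtp (adjusted p = 4.3e-18).

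The tested effectors also rose. Iigp1, the effector best studied on the Toxoplasma vacuole, had 26.7, 30.7 and 21.2 CPM in WT ADP-Hep libraries, against 4.30, 3.42 and 4.12 in WT PBS libraries. Ifi47 had 63.4, 74.5 and 56.5 CPM in WT ADP-Hep libraries, against 14.3, 12.4 and 14.8 in WT PBS libraries. Tgtp2, first described as a GTPase of T cells, had 7.46, 8.78 and 8.12 CPM in WT ADP-Hep libraries, against 0.912, 0.427 and 0.552 in WT PBS libraries. None of the groups overlapped. The log2 fold changes were 2.74 ± 0.20 for Iigp1 (adjusted p = 2.7e-08), 2.23 ± 0.10 for Ifi47 (adjusted p = 3.6e-13) and 3.68 ± 0.22 for Tgtp2 (adjusted p = 1.9e-13), so all 3 tested effectors had larger changes than the 3 regulators. That difference between classes was not tested. The Tgtp2 value rests on 14, 6 and 13 reads in the WT PBS libraries, and 183, 197 and 94 in the WT ADP-Hep libraries.

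**Figure D1:**
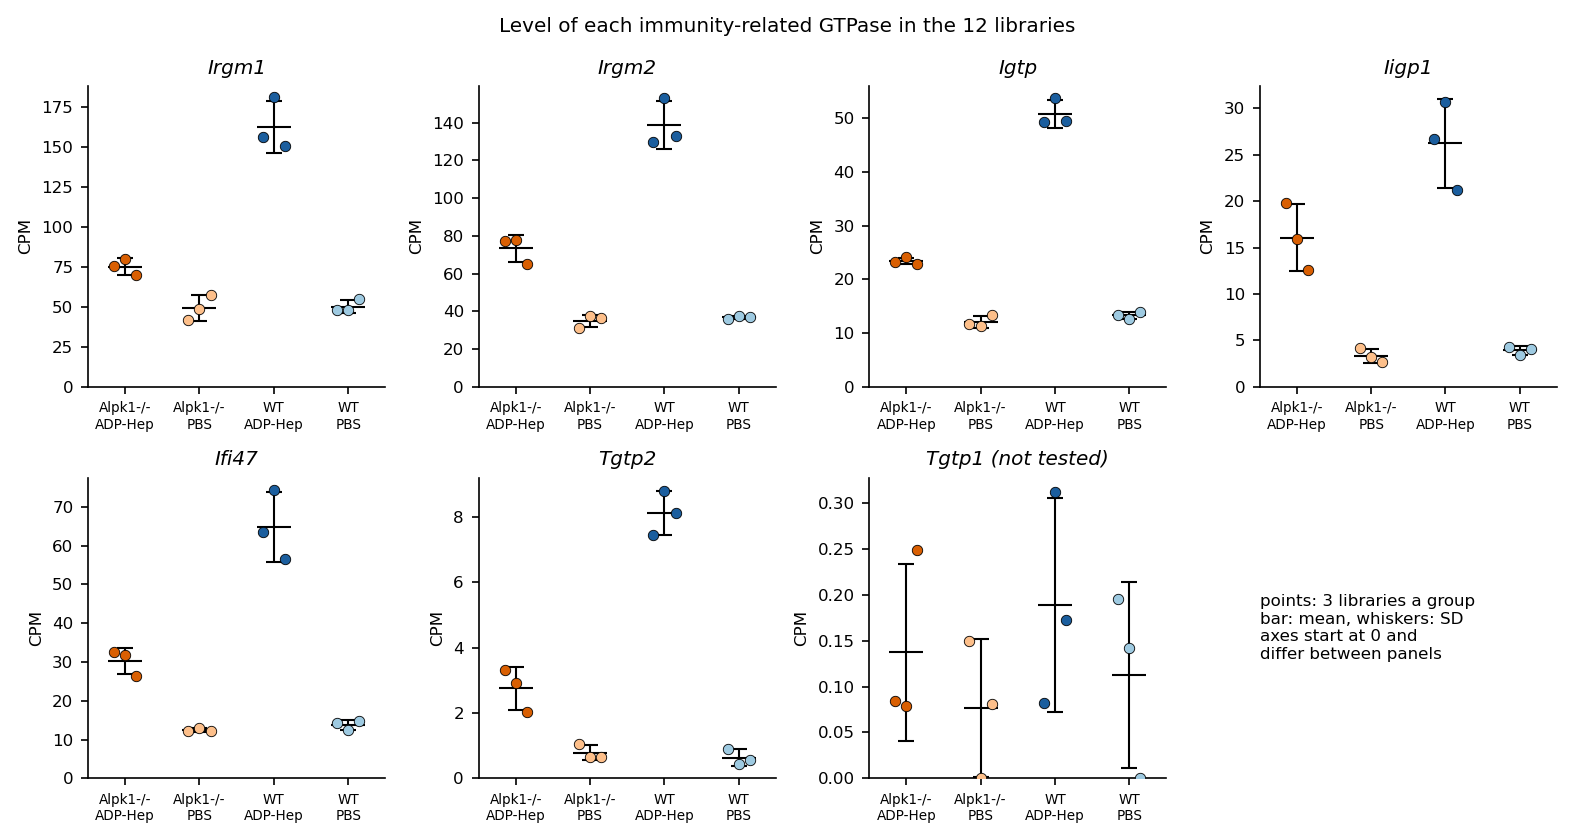
CPM (y axis, from 0, own scale in each panel) of the 7 IRGs in the 4 groups; points are the 3 libraries of a group, the bar their mean and the whiskers their SD. For the 6 tested members the WT ADP-Hep libraries sit highest, the KO ADP-Hep libraries between them and both PBS groups; Tgtp1 is at 0.312 CPM or lower in every library.

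KO macrophages also changed: ADP-Hep raised the same 6 members there, by 0.61 to 2.27 on the log2 scale, with a median of 1.17 beside 0.01 over all genes. Of all tested genes, 13.7% were called higher and 21.1% were higher without overlap in this comparison. Irgm1 had 75.6, 80.3 and 70.0 CPM in KO ADP-Hep libraries, against 41.8, 48.7 and 57.5 in KO PBS libraries. Irgm2 had 77.5, 77.8 and 65.1 CPM in KO ADP-Hep libraries, against 31.2, 37.3 and 36.3 in KO PBS libraries. Igtp had 23.1, 24.1 and 23.0 CPM in KO ADP-Hep libraries, against 11.6, 11.3 and 13.3 in KO PBS libraries. The treated libraries were again above the control libraries for each regulator, with log2 fold changes of 0.61 ± 0.11 (Irgm1, adjusted p = 0.00063), 1.07 ± 0.08 (Irgm2, adjusted p = 6.0e-09) and 0.96 ± 0.08 (Igtp, adjusted p = 1.4e-09).

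Among the effectors in KO cells, Iigp1 had 19.7, 15.9 and 12.5 CPM in ADP-Hep libraries, against 4.18, 3.18 and 2.66 in PBS libraries. Ifi47 had 32.7, 31.7 and 26.4 CPM in ADP-Hep libraries, against 12.2, 12.9 and 12.2 in PBS libraries. Tgtp2 had 3.32, 2.91 and 2.04 CPM in ADP-Hep libraries, against 1.04, 0.659 and 0.645 in PBS libraries. No KO ADP-Hep library of any tested member fell within the range of the KO PBS libraries. The log2 fold changes were 2.27 ± 0.23 (Iigp1, adjusted p = 5.6e-06), 1.27 ± 0.12 (Ifi47, adjusted p = 1.0e-07) and 1.82 ± 0.27 (Tgtp2, adjusted p = 1.2e-05). Without the unnumbered library all 6 members were still called higher. That library had the lowest value of the 3 for each tested member.

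The responses differed between genotypes for 5 of the 6 tested members, each smaller in KO cells; over all genes 24.6% were called in that direction. The difference, coded as the WT response minus the KO response, was 1.08 ± 0.14 for Irgm1, 0.85 ± 0.11 for Irgm2, 0.97 ± 0.11 for Igtp, 0.95 ± 0.16 for Ifi47 and 1.86 ± 0.42 for Tgtp2 on the log2 scale, with adjusted p from 5.2e-08 (Igtp) to 0.00061 (Tgtp2). The share of the WT log2 change seen in KO cells was lowest for Irgm1, at 35.9%, and lay between 49.4 and 57.2% for Irgm2, Igtp, Ifi47 and Tgtp2. For Iigp1 it was 83.0%. The Iigp1 difference of 0.47 ± 0.34 (95% interval -0.26 to 1.19, adjusted p = 0.27) did not pass the test, an interval that leaves room for no difference and for one as large as that of the regulators. Without KO ADP-Hep replicate 1, which had the highest Iigp1 level of its group, it was 0.67 and passed with an adjusted p of 0.0444; over all settings tried it ran from 0.20 to 0.67, with adjusted p from 0.0444 to 0.563. The difference between Iigp1 and the other members was not tested.

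**Figure D2:**
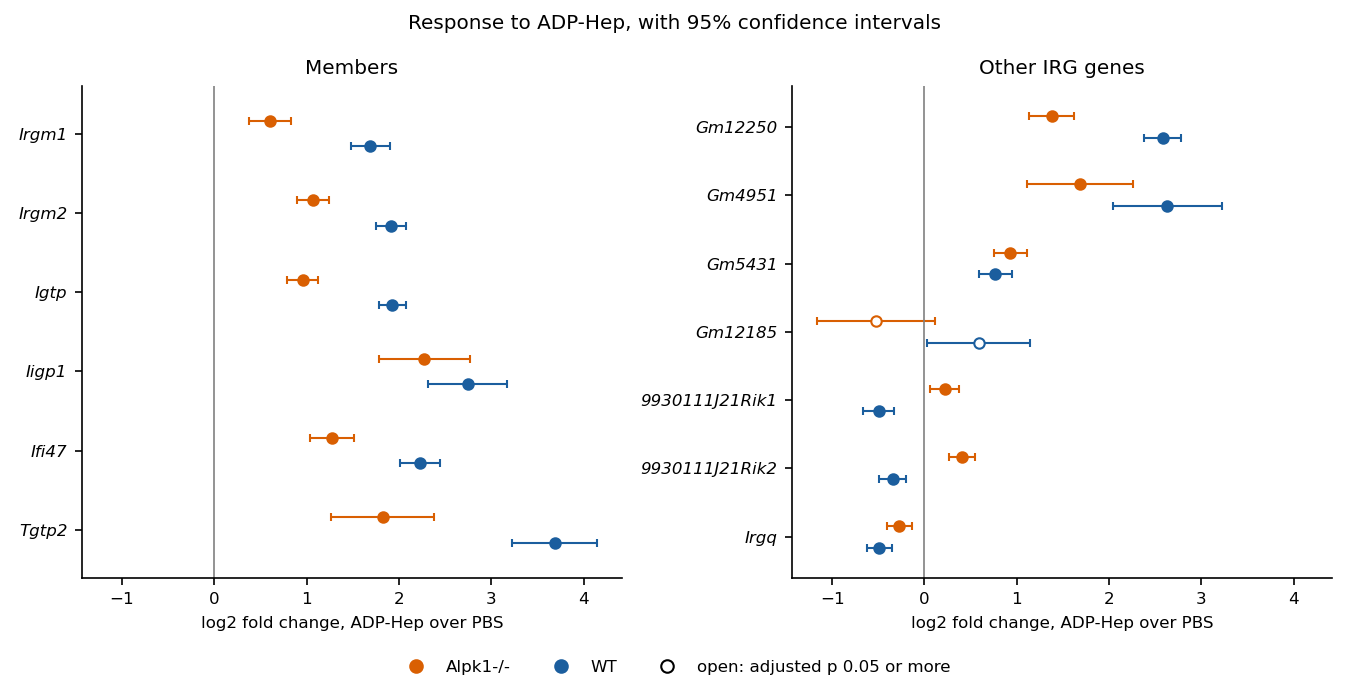
Log2 fold change of ADP-Hep over PBS (x axis) with its 95% confidence interval for the 6 tested members (left) and 7 other IRG genes (right), KO above WT in each pair; filled points were called. Every member's KO response lies left of its WT response, while the KO and WT intervals of Iigp1 overlap and 9930111J21Rik1 and 9930111J21Rik2 lie on opposite sides of 0.

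After ADP-Hep, all 6 tested members were lower in KO than in WT cells, with no overlap; of all tested genes, 32.0% were called lower and 33.7% were lower without overlap. The log2 differences, KO over WT, were -1.55 ± 0.17 for Tgtp2, -1.13 ± 0.06 for Igtp, -1.12 ± 0.10 for Irgm1, -1.11 ± 0.09 for Ifi47, -0.92 ± 0.07 for Irgm2 and -0.72 ± 0.15 for Iigp1. As mean CPM, the KO level after ADP-Hep was 33.9% of the WT level for Tgtp2, 46.0 to 53.0% for Irgm1, Irgm2, Igtp and Ifi47 and 61.3% for Iigp1. These comparisons share libraries with the responses above and are not separate evidence.

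Under PBS, 0 of the 6 tested members passed the test between KO and WT cells in edgeR, whereas 11.4% of all tested genes did. None of the 6 had an unadjusted p under 0.05 there, and none was called by DESeq2 or limma-voom. The log2 differences, KO over WT, ran from -0.25 ± 0.29 (Iigp1) to 0.31 ± 0.37 (Tgtp2), and the libraries of both genotypes overlapped for each member. The 95% intervals were narrow for Irgm2 (-0.26 to 0.11) and Igtp (-0.34 to 0.03) and wide for Iigp1 (-0.89 to 0.38) and Tgtp2 (-0.45 to 1.08), whose PBS levels are low.

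Summed over the 7 members, the family had 221 ± 19.1 CPM in KO ADP-Hep and 113 ± 10.3 in KO PBS libraries, and 452 ± 44.8 CPM in WT ADP-Hep and 119 ± 5.29 in WT PBS libraries (SD, n = 3 each). To compare levels between genes, CPM was divided by the merged length of all annotated exons in kilobases. That length was 5810 bases for Irgm1, 5823 for Iigp1 and 3690 for Irgm2. Their longest single transcripts have 3832, 3121 and 3528 bases. The order of genes therefore depends on the length used, that of Irgm1 and Irgm2 included, and other lengths were not tried. On this per-length scale Irgm2 was highest in WT ADP-Hep libraries at 37.6 ± 3.47 CPM per kb, followed by Irgm1 (28.0 ± 2.81), Ifi47 (26.2 ± 3.67) and Igtp (25.2 ± 1.29), whose ranges overlap one another. Iigp1 (4.50 ± 0.82), Tgtp2 (2.76 ± 0.23) and Tgtp1 (0.059 ± 0.036) were far below and did not overlap those 4 or one another. In KO ADP-Hep libraries the order was Irgm2 (19.9 ± 1.96), Irgm1 (12.96 ± 0.89), Ifi47 (12.2 ± 1.36), Igtp (11.6 ± 0.31), Iigp1 (2.76 ± 0.62) and Tgtp2 (0.94 ± 0.22), with Ifi47 overlapping both Irgm1 and Igtp. With PBS the per-length level was highest for Irgm2 in both genotypes (9.46 ± 0.89 CPM per kb in KO and 9.98 ± 0.20 in WT libraries), then Irgm1 (8.50 ± 1.36 and 8.65 ± 0.66), Igtp (5.98 ± 0.52 and 6.59 ± 0.31) and Ifi47 (5.04 ± 0.17 and 5.59 ± 0.51). There Igtp stood above Ifi47 without overlap in both genotypes, while Irgm2 and Irgm1 overlapped in KO libraries.

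The make-up of the family moved with treatment in both genotypes. As a share of the family's summed per-length level, Irgm1 made up 21.5% in KO ADP-Hep and 28.4% in KO PBS libraries, and 22.5% in WT ADP-Hep and 27.2% in WT PBS libraries. Iigp1 made up 4.54% in KO ADP-Hep and 1.95% in KO PBS libraries, and 3.61% in WT ADP-Hep and 2.13% in WT PBS libraries. Ifi47 made up 20.2% in KO ADP-Hep and 17.0% in KO PBS libraries, and 21.03% in WT ADP-Hep and 17.6% in WT PBS libraries. The shares of Irgm2 (30.3 to 32.9%) and Igtp (19.2 to 20.8%) moved little between the 4 group means. Tgtp2 made up 1.54% in KO ADP-Hep and 0.909% in KO PBS libraries, which overlapped, and 2.23% in WT ADP-Hep and 0.676% in WT PBS libraries, which did not. For Irgm1, Iigp1 and Ifi47 the ADP-Hep and PBS libraries of a genotype did not overlap in either genotype. These shares are given without a test, and their sizes depend on the exon lengths used.

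Tgtp1 and Tgtp2 are near-identical copies, and the counts for them depend on how reads were assigned. Their longest transcripts align over 2810 bases with 6 substitutions, A39C, G543C, C681T, C1002T, C1008A and T1783C (the Tgtp1 base first, then its position counted from 1 at the 5′ end of the Tgtp1 transcript, then the Tgtp2 base). The alignment also holds 13 gap bases. The longest run without a difference is 1040 bases. Of all stretches of 50 bases in the transcripts, 18.8% of those of Tgtp1 and 13.4% of those of Tgtp2 occur in no other gene, and at 100 bases 26.9 and 23.2%; neither the read length nor the handling of reads with several matches is stated. Tgtp1 had 2, 1 and 5 reads in KO ADP-Hep libraries, 2, 0 and 1 in KO PBS libraries, 2, 7 and 2 in WT ADP-Hep libraries and 3, 2 and 0 in WT PBS libraries. The ratio of its level summed over libraries was 2.00 in KO cells (8 against 3 reads, 95% counting interval 0.480 to 11.7) and 1.99 in WT cells (11 against 5 reads, interval 0.637 to 7.30), ADP-Hep over PBS. At this depth no change of Tgtp1 was detectable in either genotype, and the intervals cover counting error only. Reads of the Tgtp pair that fit both genes may not have been counted at all, so the Tgtp2 level is uncertain to the same degree. The other 5 members share little: at 50 bases, between 88.2% (Igtp) and 99.6% (Irgm1) of their stretches were unique. Igtp and Irgm2 share 162 exonic bases on the same strand, 8.01% of Igtp and 4.39% of Irgm2. Ifi47 shares 111 exonic bases with Olfr56 on the same strand and 106 with Gm12188 on the other. Tgtp1, besides its likeness to Tgtp2, shares 223 exonic bases with Gm12185 on the same strand, 6.96% of Tgtp1.

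**Figure D3:**
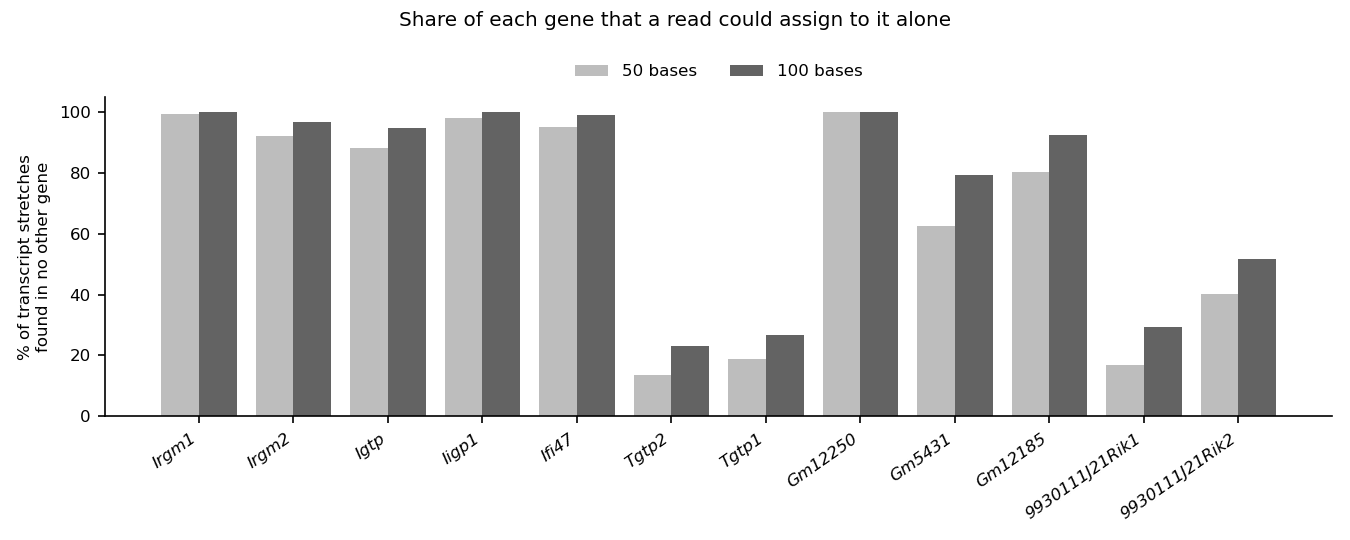
Percent (y axis) of all 50-base (light) and 100-base (dark) stretches of a gene's transcripts that occur in no other annotated gene, for the 7 members and 5 other IRG genes. Tgtp1 and Tgtp2 stay at 13.4 to 26.9% and 9930111J21Rik1 at 16.8 and 29.5%, whereas Irgm1, Irgm2, Igtp, Iigp1 and Ifi47 are at 88.2% or more.

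Of 19 symbols of other IRG genes listed, 11 were among the rows used and 7 passed the filter. The list holds alternative names of the same gene, such as Irgb10 beside Gm12250, so a symbol that was not found need not be a missing gene. They did not move as one: 5 rose and 1 fell in KO cells, and 3 rose and 3 fell in WT cells. In WT cells 31.9% of all tested genes were called higher, 31.6% were called lower and 33.3% were lower without overlap. In KO cells 13.7% were called higher and 15.3% lower. A lower response in WT than in KO cells was called for 24.9%, and a higher one for 24.6%. Gm12250, also called Irgb10 and annotated in GENCODE as a processed pseudogene, is known for a protein that works with guanylate-binding proteins on the surface of Gram-negative bacteria. It had 15.8, 13.3 and 13.1 CPM in KO ADP-Hep and 5.29, 5.45 and 5.64 in KO PBS libraries, and 35.5, 41.3 and 34.1 CPM in WT ADP-Hep and 6.77, 5.84 and 6.07 in WT PBS libraries. Its log2 fold change was 1.38 ± 0.12 in KO and 2.58 ± 0.10 in WT cells, and the difference, WT minus KO, of 1.20 ± 0.16 passed (adjusted p = 1.0e-06). Gm4951, a neighbour of Iigp1 on chromosome 18, rose by 1.68 ± 0.27 in KO and 2.63 ± 0.28 in WT cells, and its difference of 0.95 ± 0.43 did not pass (adjusted p = 0.077). It passed under 4 of 23 other settings, among them the fits without KO PBS replicate 1 (1.16) and without KO ADP-Hep replicate 1 (1.16).

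Genes of the chromosome 11 cluster lie between the members. 9930111J21Rik2, between Tgtp1 and Tgtp2, had 72.5, 67.3 and 61.9 CPM in KO ADP-Hep and 46.3, 55.1 and 50.4 in KO PBS libraries, and 39.6, 39.1 and 35.1 CPM in WT ADP-Hep and 50.4, 46.6 and 48.6 in WT PBS libraries. ADP-Hep libraries were thus higher than PBS libraries in KO cells and lower in WT cells, with no overlap in either. It rose by 0.41 ± 0.07 in KO cells and fell by 0.34 on the log2 scale in WT cells (standard error 0.07), and the difference, WT minus KO, was -0.75 ± 0.10 (adjusted p = 4.9e-07). 9930111J21Rik1, between Irgm1 and Tgtp1 and inside the span of Gm12185, changed by 0.22 ± 0.08 in KO cells (adjusted p = 0.034) and by -0.50 ± 0.08 in WT cells, and the difference was -0.71 ± 0.11 (adjusted p = 8.2e-06). Its KO call was lost under 7 of 24 settings, with adjusted p up to 0.140, among them the fits without KO ADP-Hep replicate 3 (0.16), without the unnumbered library (0.24) and without each KO PBS library (0.18 to 0.24). These 2 genes share most of their 50-base stretches with other genes of the cluster (16.8% of those of 9930111J21Rik1 and 40.2% of those of 9930111J21Rik2 are unique), so their counts cannot be fully separated.

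Gm5431 rose in both genotypes, by 0.93 ± 0.09 in KO and 0.77 ± 0.09 in WT cells. The difference, WT minus KO, of -0.16 (95% interval -0.42 to 0.09) did not pass. With library totals as the only scaling it was -0.32 and passed. Of the 50-base stretches of Gm5431, 62.7% occur in no other gene, and 9930111J21Rik1 and 9930111J21Rik2 share the most with it. The part of shared reads in its values was not tested. Gm12185, whose window holds the same core arrangement as those of the Tgtp genes, had 11 to 22 reads per library in KO cells with ADP-Hep and 11 to 23 with PBS, and in WT cells 13 to 38 with ADP-Hep and 15 to 21 with PBS. Its log2 changes of -0.53 ± 0.31 in KO and 0.59 ± 0.27 in WT cells did not pass, while their difference, WT minus KO, of 1.11 ± 0.41 did (adjusted p = 0.028). The WT change passed without WT ADP-Hep replicate 3 (0.68, adjusted p = 0.044). The call of the difference was lost under 9 of 23 settings, including the fits without WT PBS replicate 3 (1.04), without WT ADP-Hep replicate 1 (1.05) or 2 (1.05), without KO PBS replicate 2 (0.90) and without the unnumbered library (0.90). Irgq, a distant relative on chromosome 7 known as a quasi-GTPase, fell by 0.27 in KO and 0.49 in WT cells on the log2 scale (standard error 0.07 each). Its difference, WT minus KO, did not pass. Under 23 other settings that difference ran from -0.37 to -0.17 and passed in 4, among them library totals as the only scaling (-0.37) and the fit without WT ADP-Hep replicate 3 (-0.30). F830016B08Rik, Gm4841, Gm12187 and Irgc1 had at most 15 reads in any library and did not pass the filter. F830016B08Rik had 14 reads in KO ADP-Hep and 12 in KO PBS libraries, and 21 in WT ADP-Hep and 6 in WT PBS libraries; its WT ratio of 3.16 had a 95% counting interval of 1.24 to 9.58, and its adjusted p was 0.075 in a fit with no filter beyond 1 count. Gm4841 had 3 reads in KO ADP-Hep and 3 in KO PBS libraries, and 12 in WT ADP-Hep and 0 in WT PBS libraries, where the counting interval of the ratio starts at 2.51. Without the filter, Gm4841 was called higher in WT cells (adjusted p = 0.0043) and in the difference between responses, WT minus KO (adjusted p = 0.046).

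**Figure D4:**
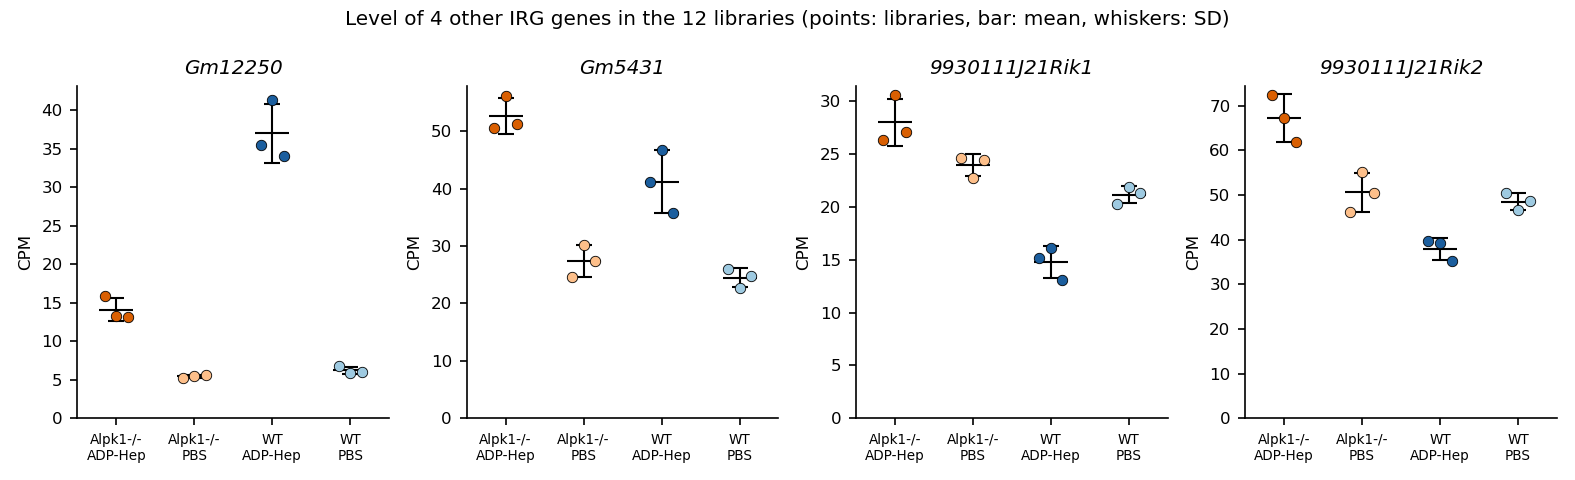
CPM (y axis, from 0, own scale in each panel) of 4 other IRG genes in the 4 groups; points are libraries, the bar their mean and the whiskers their SD. Gm12250 has the order of the members, Gm5431 is high after ADP-Hep in both genotypes, and 9930111J21Rik1 and 9930111J21Rik2 are highest in KO ADP-Hep and lowest in WT ADP-Hep libraries.

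The next lists follow the route to an IRG promoter. Among the ligands, Ifnb1, which encodes interferon-beta, had no read in any of the 6 KO libraries (a count of 0 over the group allows up to 0.0530 CPM in KO ADP-Hep and 0.0706 in KO PBS libraries, at 3 counts). It had 3, 5 and 6 reads in WT ADP-Hep libraries, against 0, 1 and 0 in WT PBS libraries, a ratio of 12.7 with a 95% counting interval of 1.93 to 535. Ifng, Ifna1, Ifna2, Ifna4 and Ifna5 had no read in any of the 12 libraries, which allows up to 0.122 to 0.259 CPM in a library. These ligands were named after their values had been seen. RNA was taken at a single time, and ligand protein was not measured.

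All 4 receptor genes tested rose in WT cells, and 1 of the 4 rose in KO cells, beside 31.9% and 13.7% of all tested genes. The changes in KO cells were 0.03 ± 0.05 (Ifnar1), 0.14 ± 0.05 (Ifngr1, called), 0.01 ± 0.04 (Ifngr2) and -0.06 ± 0.05 (Ifnar2), and in WT cells 0.92 ± 0.05, 0.80 ± 0.05, 0.70 ± 0.04 and 0.11 ± 0.05, on the log2 scale. The responses differed between genotypes for all 4, each with a higher value in WT cells, a direction called for 24.6% of all genes. The receptor genes did not all start level: under PBS, 1 of the 4 was called higher and 2 lower in KO than in WT cells. Those log2 differences, KO over WT, ran from -0.33 to 0.18, and 11.4% of all tested genes were called in either direction. The Ifnar2 call in WT cells (adjusted p = 0.048) was lost under 16 of 24 settings, including the omission of any single library other than WT ADP-Hep replicate 1 and KO PBS replicate 2 (0.09 to 0.12). Its difference between genotypes (0.17) was lost under 10 of 23, among them the fits without WT PBS replicate 1 or 3, WT ADP-Hep replicate 2 or 3, KO PBS replicate 2 or 3 or KO ADP-Hep replicate 1 (0.14 to 0.18); the Ifngr1 call in KO cells was lost under 5 of 24, without KO PBS replicate 1 or 3, without KO ADP-Hep replicate 1 or without the unnumbered library among them (0.11 to 0.14).

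Of 11 signalling genes, 7 rose and 1 fell in KO cells, and 10 rose and 1 fell in WT cells, with medians of 0.24 and 1.26 on the log2 scale. Of all tested genes, 13.7% were called higher and 15.3% lower in KO cells, and 31.9% higher and 31.6% lower in WT cells. Jak2, the kinase of the interferon-gamma receptor, rose by 0.20 ± 0.06 in KO and 1.57 ± 0.05 in WT cells. Irf1, a transcription factor that binds ISRE-like sites, rose by 0.24 ± 0.07 in KO and 1.54 ± 0.07 in WT cells; the KO call was lost without KO PBS replicate 1 (0.18), KO PBS replicate 2 (0.23) or KO ADP-Hep replicate 3 (0.19). Socs1, a feedback inhibitor of JAK kinases, rose by 1.72 ± 0.32 in KO and 3.63 ± 0.18 in WT cells. Irf8, a macrophage lineage factor, fell by 0.22 in KO and 1.03 in WT cells (standard error 0.05 each). Of the 11 genes, the difference between responses, WT minus KO, was called higher for 9 and lower for 1. It passed for all 4 named genes, with adjusted p from 1.3e-13 to 0.00082. Those 4 were chosen by their p in WT cells, which favours such a call. Over all genes, 24.6% were called with a larger WT response and 24.9% with a smaller one.

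The partners that help to place IRGs on vacuoles, the ubiquitin-like conjugation genes and their cargo receptors, moved in both directions: 2 of 13 rose and 5 fell in KO cells, and 6 rose and 5 fell in WT cells. Over all genes 13.7% were called higher and 15.3% lower in KO cells, and 31.9% higher and 31.6% lower in WT cells. Sqstm1, which encodes the ubiquitin-binding receptor p62, fell by 0.76 in KO cells and rose by 1.53 in WT cells on the log2 scale (standard error 0.06 each); its mean was 425 ± 3.82 CPM in KO ADP-Hep and 720 ± 72.0 in KO PBS libraries, and 1782 ± 160 CPM in WT ADP-Hep and 618 ± 12.9 in WT PBS libraries. Trim21, a ubiquitin ligase, rose by 0.49 ± 0.07 in KO and 1.14 ± 0.07 in WT cells. Atg7, which starts conjugation of LC3-like proteins, changed by -0.11 ± 0.06 in KO cells, which did not pass, and by -0.65 ± 0.06 in WT cells. Map1lc3b, one of those LC3 proteins, changed by -0.13 ± 0.05 in KO and -0.50 ± 0.05 in WT cells; its KO call was lost under 10 of 24 settings, among them the fits without WT ADP-Hep replicate 2, KO PBS replicate 2 or 3, KO ADP-Hep replicate 1 or the unnumbered library (-0.13 to -0.10).

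Of 11 guanylate-binding proteins listed, the larger interferon-induced GTPases that act beside the IRGs, 8 were in the rows used and 6 were tested. In KO cells 5 rose, and Gbp8 changed by -0.32 ± 0.27 without passing (adjusted p = 0.41). In WT cells 5 rose and 1, Gbp8, fell by 1.16 on the log2 scale (standard error 0.35). Of all tested genes, 13.7% were called higher in KO cells, and 31.9% higher and 31.6% lower in WT cells. A larger WT response was called for 24.6% and a smaller one for 24.9%, and 32.0% were called lower in KO than in WT cells after ADP-Hep. Gbp2 rose by 0.85 ± 0.09 in KO and 3.10 ± 0.08 in WT cells, Gbp3 by 1.03 ± 0.11 and 2.14 ± 0.09, Gbp7 by 1.33 ± 0.11 and 1.64 ± 0.10, and Gbp4 by 1.65 ± 0.49 and 2.85 ± 0.43. The difference between genotypes passed for Gbp2 (2.24 ± 0.12) and Gbp3 (1.12 ± 0.15), WT minus KO, but not for Gbp4 or Gbp7 (0.31 ± 0.16, adjusted p = 0.11); it passed for Gbp7 with no filter beyond 1 count (0.30) and without WT ADP-Hep replicate 3 (0.40). For Gbp9, which rose by 0.78 ± 0.09 in KO and 0.35 ± 0.10 in WT cells, the difference passed in the other direction (-0.43 ± 0.14, adjusted p = 0.010). After ADP-Hep, Gbp8 and Gbp9 were higher in KO than in WT cells, by 1.56 ± 0.33 and 0.63 ± 0.09, and the other 4 tested were lower. The KO call of Gbp4 was lost without KO PBS replicate 1 (1.57) or 3 (1.30) or KO ADP-Hep replicate 1 (1.30).

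**Figure D5:**
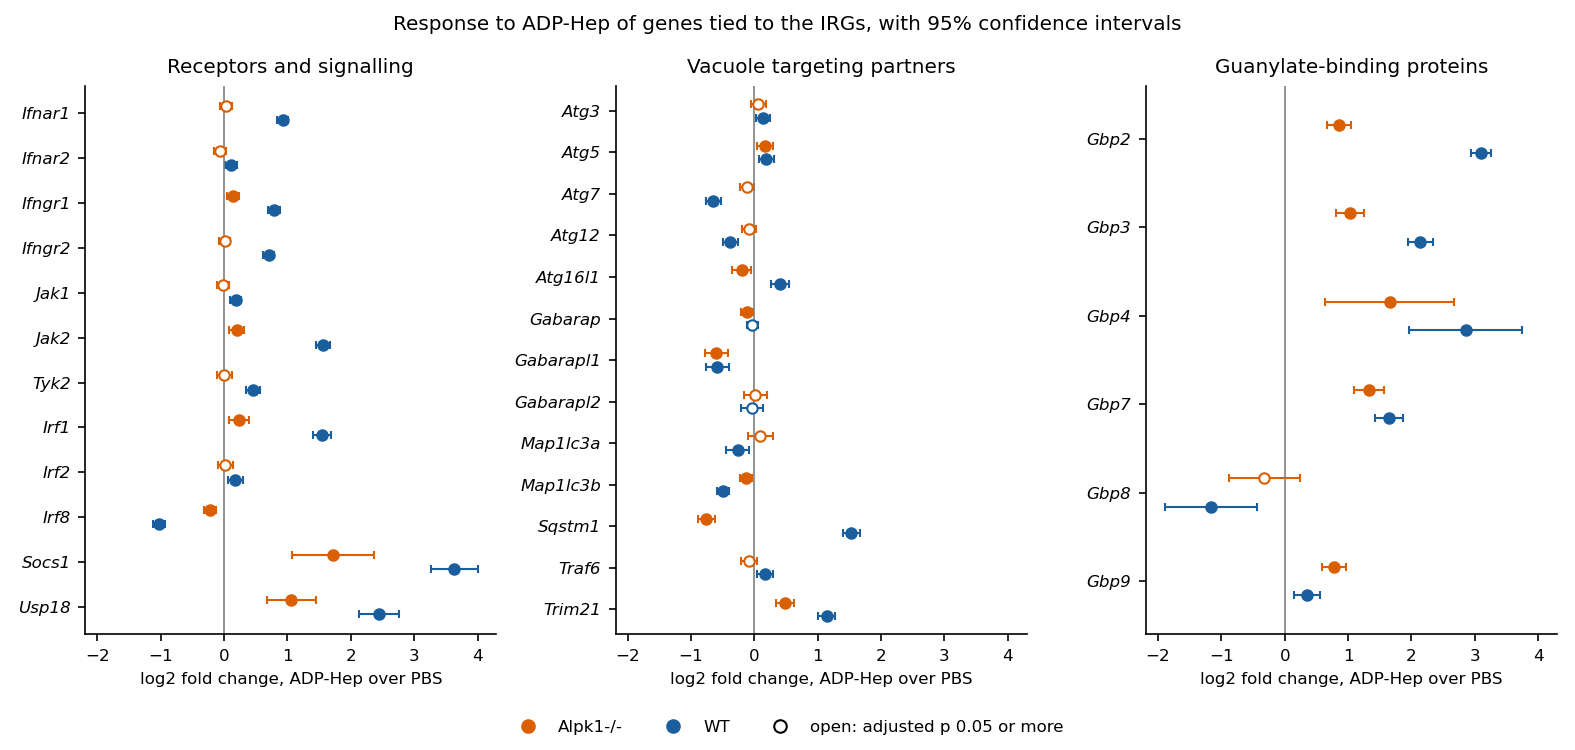
Log2 fold change of ADP-Hep over PBS (x axis) with its 95% confidence interval for interferon receptor genes, 8 of the 11 signalling genes, vacuole targeting partners and guanylate-binding proteins, KO above WT in each pair; filled points were called. Most receptor and signalling genes shown lie farther from 0 in WT than in KO cells, and Sqstm1 lies left of 0 in KO cells (-0.76) and right of it in WT cells (1.53).

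Across the 12 libraries the tested members tracked one another, with Pearson r of log2 CPM from 0.890 (Irgm1 and Iigp1) to 0.995 (Irgm2 and Ifi47) over the 15 pairs. These coefficients are descriptions: the 12 points share libraries and fall into 4 groups, with WT ADP-Hep apart from the rest. Among 9469 genes with a mean of at least 5 CPM, the profiles most like the mean of the tested members were those of Gm12250 (r = 0.996), Gbp3 (0.995), Ifit3 (0.995), Zbp1 (0.994) and Tnfsf10 (0.993). For single members the most similar genes were Coa5 for Irgm1 (0.996), Rtp4 for Irgm2 (0.996), Parp14 for Igtp (0.997), Gbp7 for Iigp1 (0.985), Gbp3 for Ifi47 (0.995) and Tnfsf10 for Tgtp2 (0.985). A high r does not mean a like size of change: Coa5 had 232 ± 0.508 CPM in KO ADP-Hep and 207 ± 8.95 in KO PBS libraries, and 281 ± 4.50 CPM in WT ADP-Hep and 208 ± 6.06 in WT PBS libraries.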

How the data were processed

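RNA of 12 libraries (stranded mRNA kit, per the labels' protocols) was measured as read counts per gene, whole numbers that the authors deposited without normalization. STAR, featureCounts, RSEM, DESeq2, FastQC and Trim Galore, and the builds mm10 and hg38, are named per the submitters' processing notes; which of them made the counts, and the annotation release, strand setting and versions, are not stated there. Columns were assigned by name; 1 KO ADP-Hep column matched no label and kept its group without a number. KO columns sit 1 row low from row 37643, so the 37542 rows above, less a margin of 100, were used (r between WT and KO means 0.996 there, 0.0420 below). In 20 simulated slips the break was placed within 6 rows. All 37542 identifiers are in GENCODE mouse release 21, which gave coordinates and exon lengths.

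In R 4.3.3, edgeR 4.0.16 with limma 3.58.1 fitted 1 robust quasi-likelihood model (TMM, filterByExpr, 12261 genes) to 4 group means. From it 5 comparisons were taken, with p adjusted over all genes. SE is the log2 fold change over the square root of F. CPM use TMM library sizes. The fit was tested on simulated counts with known fold changes, of which small ones were recovered only in part. The biological coefficient of variation was 4.81%. By the mean over genes, no replicate pair matched within sampling noise (chi-square per degree of freedom 1.93 to 10.1). The median over genes ran from 0.556 (WT PBS replicates 1 and 2) to 1.38 (WT PBS replicates 1 and 3). Under sampling noise alone such a median lies below such a mean. The lower medians therefore do not show that most genes matched within sampling noise. Alternatives included DESeq2 1.42.0.

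Members, lists and the naming rule were chosen with earlier results of these data known. The rule names all members, other IRG genes, Alpk1, up to 4 called genes with the smallest p in WT cells per further list, and the most similar profiles. Some items of the lists are not reported here.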

Additional observations from a re-analysis of the deposited data

Results flagged for a closer look

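The response to ADP-Hep differed between genotypes, by a test of the difference itself in edgeR, for 5 of 6 tested members and 4 of 7 tested other IRG genes; over all genes, 24.6% were called with a larger WT response and 24.9% with a smaller one. For Irgm1 the difference, WT response minus KO response, was 1.08 on the log2 scale. For Irgm2 it was 0.85, for Igtp 0.97, for Ifi47 0.95 and for Tgtp2 1.86. Among the other IRG genes it was 1.20 for Gm12250 and 1.11 for Gm12185, whose call was lost under 9 of 23 other settings, and it went the other way for 9930111J21Rik1 (-0.71) and 9930111J21Rik2 (-0.75). Each of these 3 chromosome 11 genes, Gm12185 included, shares transcript stretches with its neighbours, and the part of shared reads in these values was not tested.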

How the results depend on the processing

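Under 24 other settings (23 for the difference between responses), all 6 tested members stayed called higher in KO and in WT cells and lower in KO than in WT cells after ADP-Hep, and 5 of 6 stayed called in the difference, 6 without KO ADP-Hep replicate 1 (Iigp1, 0.67). Under PBS 0 members were called in any setting, but with 1 library left out Irgm1 ran from -0.15 to 0.065 (0.035 without WT PBS replicate 3, 0.065 without KO PBS replicate 1) and Irgm2 from -0.13 to 0.0010, the highest without KO PBS replicate 1. For the counts of KO against WT genes under PBS, the reported fit gave 683 higher, 714 lower and 1397 called. With all rows as deposited it gave 1632, 1518 and 3150; those rows include the ones where KO columns are off by 1. With 1 library left out the counts ran from 438 to 772 higher, 391 to 793 lower and 829 to 1565 called, the lowest without KO PBS replicate 1.

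Library totals as the only scaling put the median of all genes at -0.12 in the WT response (TMM: -0.0058), -0.16 in the difference (-0.0099) and 0.17 in KO against WT cells after ADP-Hep (0.014), and called 2990 genes higher and 4927 lower in WT (TMM: 3914 and 3871), 2360 and 1483 in KO cells (1678 and 1870), 2020 and 4507 in the difference (3018 and 3053) and 5609 and 2722 in KO against WT cells after ADP-Hep (4016 and 3929). Ifnar2 in WT cells was -0.0020 under it. Of other uncalled values, Ifngr2 in KO cells was -0.00020 with at least 1 CPM in 3 libraries and ran from -0.026 (without KO PBS replicate 1) to 0.038 with 1 library left out, Ifnar1 in KO cells ran from -0.0053 (without KO PBS replicate 3) to 0.080, and Gm4951, KO over WT after ADP-Hep, was 0.13 with the replicate block and ran from -0.44 (without KO ADP-Hep replicate 1) to 0.031 (without the unnumbered library). The cause was not tested.

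Replicate numbers gave no clear pairing of the libraries: over 15 same-numbered pairs the deviations from group means correlated from -0.37 to 0.22, 4 of them over 0.1. Over 30 other pairs they correlated from -0.22 to 0.24. With 3 libraries a group this cannot settle whether same-numbered libraries share an animal, which the labels do not say. A fit with the replicate number as a block, without the unnumbered library, called 2583 genes in KO and 7697 in WT cells, and 1227 between genotypes under PBS; Iigp1 differed by 0.20 between responses there, and the KO call of Jak2 was lost (0.17, adjusted p = 0.088). Low counts limit Tgtp1 and the PBS levels of Tgtp2, beside the sequence that these genes share.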
